A study of Mus musculus with 138 samples.

Results

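Nobox, Figla, Lhx8, Sohlh1 and Sohlh2 are 5 of the 25900 genes counted in both deposited tables, and they were taken by name as transcription factors of the oocyte. Their RNA was followed in mouse embryos at the 2-cell stage, to ask how much of it was present when the chromatin remodeller SMARCA5 had been lost from the egg or from the zygote. In the deletion experiment, 28 libraries from embryos of genotype Smarca5 +/- (called maternal deletion) were compared with 22 from Smarca5 +/+ embryos (called wild type). Since matKO females are named in the titles of either group, the mothers cannot be separated by label, and the embryo's own genotype cannot be told apart from maternal loss. In the TrimAway experiment, where zygotes receive an antibody and TRIM21 routes the bound protein to degradation, wild-type embryos were injected with an antibody to SMARCA5 (31 libraries) or with IgG (20 libraries) or were not injected (15 libraries), and were collected at least 24 hours later. Polyadenylated RNA was read from 1 library per plate well, and replicate numbers mark separately collected pools of embryos. The labels also call replicates technical, so the p-values below measure the spread between these libraries. The titles do not name the Cre or the promoter behind the maternal deletion, nor the ages of the females.

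All 5 genes encode factors that switch on the oocyte's own gene programme in the ovary, before the egg is shed. SOHLH1 and SOHLH2 are basic helix-loop-helix (bHLH) proteins that act early in follicle growth and also in spermatogonia, and LHX8 (a LIM homeobox protein) and NOBOX (a homeobox protein) act beside and after them. FIGLA, another bHLH protein, is required for the zona pellucida genes, whose products form the egg coat. Maternal RNA is largely removed during the passage from egg to 2-cell embryo, as transcription from the embryonic genome begins. RNA carried over from the egg and RNA newly made in the embryo cannot be told apart in these libraries, and neither can fewer cells and less RNA per cell.

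The bases just before the transcription start are shown for the 3 genes with higher counts after the deletion and for Sohlh1, which was not higher, because bHLH factors bind the E-box CANNTG. The sequences are from RefSeq on GRCm38.p6, 5′ to 3′ on the gene's strand, with each E-box in capitals. The stretch of Sohlh2 is 234 bases long and ends 16 bases before its RefSeq start.
Nobox, chr6:43309555-43309804, minus strand: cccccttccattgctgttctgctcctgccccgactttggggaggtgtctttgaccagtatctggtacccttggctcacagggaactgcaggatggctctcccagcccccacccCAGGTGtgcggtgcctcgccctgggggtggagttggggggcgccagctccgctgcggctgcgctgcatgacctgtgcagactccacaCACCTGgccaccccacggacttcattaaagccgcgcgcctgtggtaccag
Figla, chr6:86016941-86017190, plus strand: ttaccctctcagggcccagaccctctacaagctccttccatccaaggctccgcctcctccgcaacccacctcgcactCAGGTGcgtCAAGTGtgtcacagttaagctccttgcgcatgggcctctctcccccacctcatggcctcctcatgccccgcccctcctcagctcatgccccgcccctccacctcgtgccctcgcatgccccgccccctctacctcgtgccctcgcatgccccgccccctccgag
Sohlh2, chr3:55181794-55182027, plus strand: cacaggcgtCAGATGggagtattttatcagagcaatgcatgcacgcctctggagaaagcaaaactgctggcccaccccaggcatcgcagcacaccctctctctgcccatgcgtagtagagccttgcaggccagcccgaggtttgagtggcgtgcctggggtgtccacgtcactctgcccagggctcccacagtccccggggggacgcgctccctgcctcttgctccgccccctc
Sohlh1, chr2:25847249-25847498, minus strand: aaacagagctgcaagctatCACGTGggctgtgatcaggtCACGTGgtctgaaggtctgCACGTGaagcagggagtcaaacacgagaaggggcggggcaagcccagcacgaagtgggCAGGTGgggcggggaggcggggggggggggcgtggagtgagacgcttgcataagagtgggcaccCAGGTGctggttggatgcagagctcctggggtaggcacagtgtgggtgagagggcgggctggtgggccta
In the 250 bases before the start, Sohlh1 held 5 E-boxes, Nobox and Figla 2 each, Sohlh2 1 and Lhx8 0. The pattern CANNTG reads the same on both strands, and 66.2% of 32851 RefSeq promoters held at least 1 copy in 250 bases, so its presence does not set these genes apart. The homeobox pattern TAATTA or TAATTG, searched on both strands, was in none of the 5 windows and in 11.3% of all promoters.

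The 116 libraries with at least 100000 counts held 109007 to 12004992 counts each. Their median depth was 545264.5 counts in wild type and 1618485.5 in maternal deletion, so detection was also read after thinning every library at random to 100000 counts. Levels are given as CPM, the count divided by the library's total and multiplied by 1000000. A gene is called detected in a library with more than 3 counts or, after thinning, with at least 1 count. None of the 5 genes had a count in the 3 wells without an embryo. The totals of these wells, 453 to 1875 counts, were too low to show genes at the levels given below. As a check of the labels, Smarca5 was 450.4 ± 184 CPM in wild type (mean ± SD, n = 22) and 90.8 ± 77.6 CPM in maternal deletion (n = 28). In replicate 2, 1 maternal deletion library (well A04, 349 CPM of Smarca5 and 24.5 CPM of the egg transcript Gdf9) and 2 wild-type libraries (well G05, 158 and 645 CPM, and well H05, 209 and 350 CPM) went toward the other group, and results are also given without these 3. Transcripts typical of the 2-cell embryo (13 genes in the tables) summed to a median of 702 CPM in wild type and 266 CPM in maternal deletion, and the 10 egg transcripts to 6208 and 12959 CPM. Of these 10, 8 were called higher after the deletion (30.3% of all genes were). Dppa3 was called lower (26.4% were) and Btg4 was not called. The 8 are also among the genes reported or proposed to depend on these factors, examined below, and Gdf9 alone had medians of 52.0 and 4377 CPM. Cumulus and granulosa cell markers (12 genes, follicle cells that surround the egg) summed to a median of 7.35 CPM in wild type (range 0 to 58.1), with Foxl2, Inha, Inhba and Cyp11a1 at 0 throughout, and to 40.2 CPM in maternal deletion (0 to 90.6), with Inha and Ptx3 at 0. They summed to medians of 53.7 CPM in anti-SMARCA5 (24.9 to 248), 46.2 CPM in IgG (9.28 to 94.4) and 31.7 CPM in uninjected libraries (10.3 to 111). Markers of spermatogonia, where Sohlh1 and Sohlh2 also act, summed to 186 CPM in wild type and 1084 CPM in maternal deletion, a list that holds Ddx4 and Uchl1, which oocytes also express (Uchl1 alone had medians of 123 and 1040 CPM), and Zbtb16, which was at 0 in wild type. Markers of blastocyst lineages summed to a median of 2.95 CPM in wild type (0 to 23.3) and 8.18 CPM in maternal deletion (0 to 355). In replicates 1 and 2 the medians were 1.53 and 37.1 CPM in maternal deletion, against 3.90 and 1.82 CPM in wild type. The same markers summed to 39.8 CPM in anti-SMARCA5, 21.4 CPM in IgG and 17.8 CPM in uninjected libraries.

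Nobox RNA rose after the maternal deletion, and Sohlh2 and Figla, which were nearly or wholly undetected in wild type, were found in part of the deletion embryos. Lhx8 was abundant in both groups and its difference did not pass the test. Sohlh1 was low in both groups and was not higher after the deletion. Of the 2 members that passed the filter on low counts, 1 changed, in a comparison in which 56.6% of 8518 tested genes did. The plot of levels by library shows all 116 values of each gene.

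**Figure D1:**
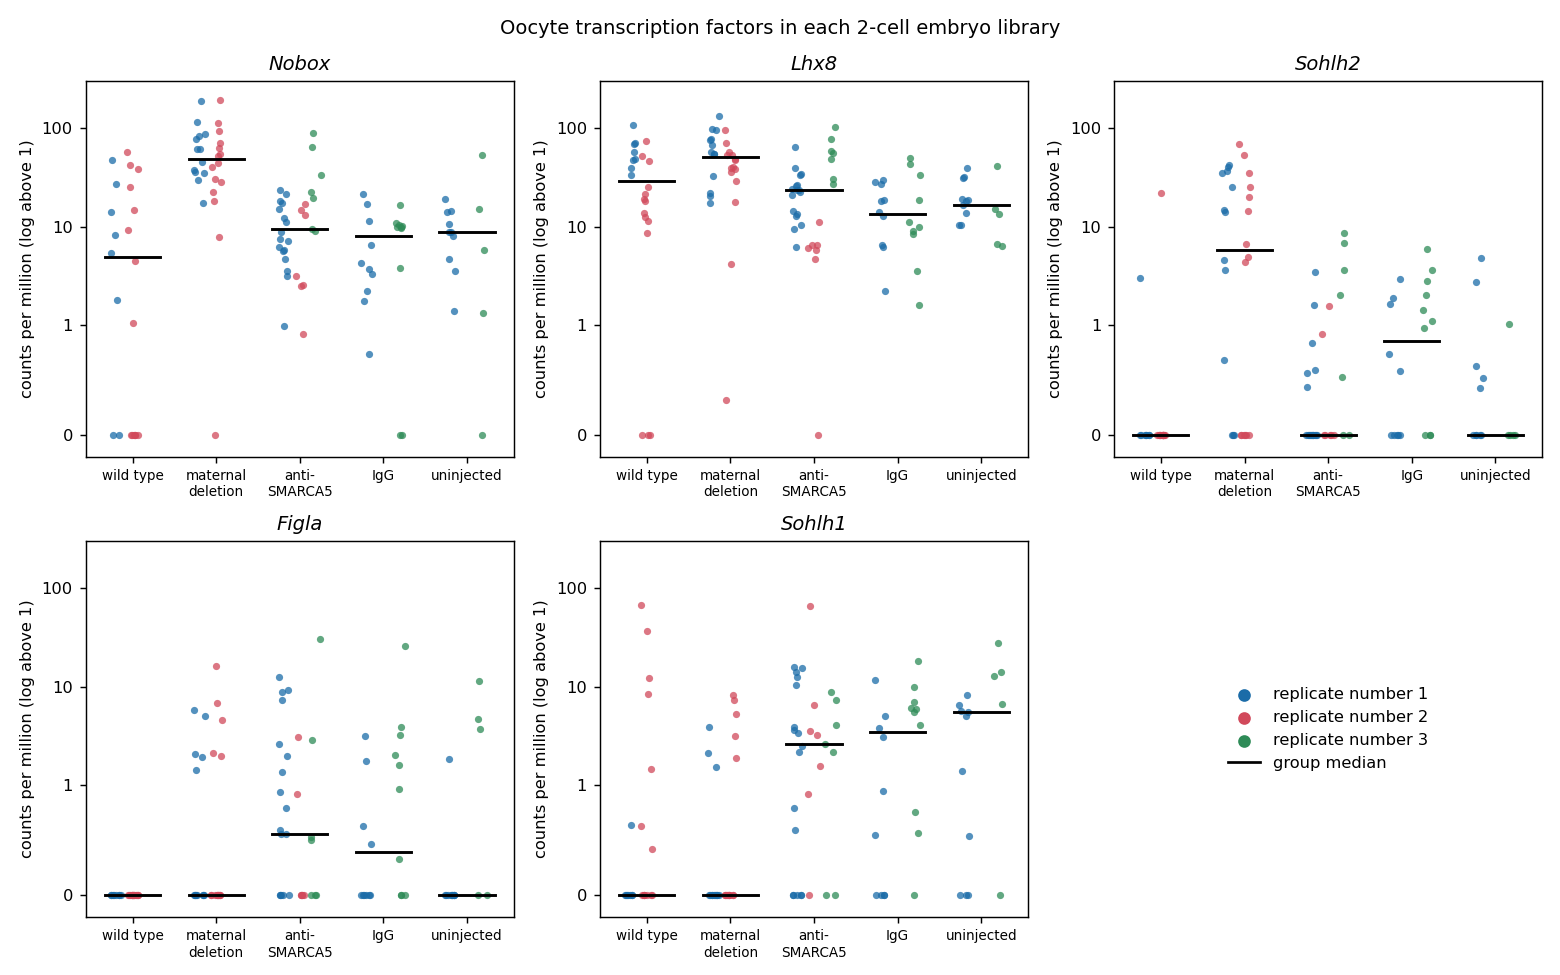
CPM of the 5 genes (panels) in each library (points, coloured by replicate number) of the 5 groups, with the group median as a line; the axis is linear below 1 CPM and logarithmic above it. In Nobox and Sohlh2 the maternal deletion libraries lie above most wild-type libraries, with medians of 48.9 against 4.89 CPM and 5.80 against 0 CPM.

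Nobox (chromosome 6, positions 43303674 to 43309562, GRCm38) had a lowest, median and highest value of 0, 4.89 and 57.8 CPM over the 22 wild-type libraries, and of 0, 48.9 and 191 CPM over the 28 maternal deletion libraries. The groups overlapped, but 27 of 28 deletion libraries lay above the wild-type median, 12 lay above the highest wild-type library, and 21 of 22 wild-type libraries lay below the deletion median. The means were 13.5 ± 18.1 and 60.8 ± 46.6 CPM. The log2 fold change was 2.48 (standard error (SE) 0.60), with an adjusted p of 0.000487 in edgeR's quasi-likelihood test with Benjamini-Hochberg adjustment. The change was of similar size in both collections of embryos, 2.51 (adjusted p in edgeR = 0.00226, where 43.8% of genes changed) in replicate 1 and 2.39 (adjusted p = 0.0316, where 39.9% changed) in replicate 2. In replicate 1 the lowest of the 13 deletion libraries, 17.4 CPM, lay above 6 of the 8 wild-type libraries. Thinned to equal depth, Nobox was still seen in 27 of 28 deletion libraries against 11 of 22 wild-type libraries.

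The libraries in doubt did not carry the Nobox difference. Well G05 held the highest wild-type value (57.8 CPM) and well H05 held 38.4 CPM, while well A04 of the deletion group held 52.2 CPM, inside its own group's range although its Gdf9 was at the wild-type level. Without the 3 libraries the log2 fold change of Nobox was 3.02 (SE 0.64, adjusted p in edgeR = 7.43e-05). A change was then called in 60.1% of genes. The 3 libraries were picked by Smarca5 and Gdf9, with which Nobox varied in wild type (Spearman rho -0.46 and 0.42). The larger change without them thus follows in part from that choice. The 10 alternatives gave changes between 2.19 and 3.02, with adjusted p between 1.91e-05 and 0.0316. Scaling by total counts alone moved the median of all tested genes by -0.22 on the log2 scale, and Nobox was then at 2.19. The deletion library without a Nobox count was well A05 of replicate 2. Cumulus and granulosa markers were also higher in the deletion group (above), and their part in the Nobox result was not tested.

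Lhx8 (chromosome 3, positions 154306288 to 154330651) ranged from 0 to 108 CPM in wild type, with a median of 29.3 CPM, and from 0.318 to 132 CPM in maternal deletion, with a median of 50.8 CPM. The ranges almost coincided, and 1 deletion library lay above the highest wild-type library. The log2 fold change was 0.74 (SE 0.44, adjusted p in edgeR = 0.149). The picture differed by collection. In replicate 1 the 8 wild-type libraries held 33.2 to 108 CPM (median 52.8) and the 13 deletion libraries 17.3 to 132 CPM (median 56.8), with a log2 fold change of 0.14 (SE 0.36). In replicate 2 the 14 wild-type libraries were lower, from 0 to 73.4 CPM (median 15.97), against 39.9 CPM in the 15 deletion libraries, and the log2 fold change was 1.40 (SE 0.71, adjusted p = 0.108). Neither within-collection difference passed the threshold, and the difference between the collections did not either (1.15, SE 0.83, adjusted p in edgeR = 0.524, in a test that 1.08% of genes passed). Collection and sequencing lane cannot be told apart in this experiment. The lowest deletion value, 0.318 CPM, was that of well A04.

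Sohlh2 (chromosome 3, positions 55182028 to 55209957) was at 0 in 20 of 22 wild-type libraries. Only well G05, 1 of the libraries in doubt, had more than 3 counts of it (45 counts, 22.0 CPM). In the maternal deletion group it was detected in 17 of 28 libraries, or 60.7% with an exact 95% binomial interval of 40.6 to 78.5%, against 4.55% (0.115 to 22.8%) in wild type. The deletion libraries ranged from 0 to 68.3 CPM with a median of 5.80 CPM. In 9 of them it was at 0, and in 9 it lay above the 22.0 CPM of well G05. Thinned to 100000 counts, 16 of 28 deletion libraries and 1 of 22 wild-type libraries still showed it, and without the libraries in doubt it was detected in 17 of 27 against 0 of 20. Sohlh2 did not pass the filter on low counts. In the fit without that filter, in which 49.6% of 20995 genes changed, its log2 fold change was 3.51 (SE 0.93, adjusted p in edgeR = 0.00145), a size that rests on few wild-type counts. It ranged from 3.09 to 7.60 over the alternatives, the highest being the fit without the 3 libraries. The 0 of 20 and this highest change follow from leaving out well G05, which was picked by Smarca5 and Gdf9.

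Figla (chromosome 6, positions 86017191 to 86020996) had 0 counts in all 22 wild-type libraries, which together held 52405178 counts and so allow up to 0.0572 CPM by the limit of 3 counts over the group. The maternal deletion libraries held 132 Figla counts, or 1.64 CPM of their pooled counts, at least 28.7-fold above that limit. These counts came from 10 libraries, 6 of them above 3 counts, and the highest was 16.2 CPM in well F03 of replicate 2. Most deletion libraries, 18 of 28, had none. The same limit was 0.620 CPM in wild type of replicate 1, where pooled deletion libraries held 1.17 CPM. In replicate 2 it was 0.0631 CPM, against 1.73 CPM, so the fold above the limit rested on the depth of that collection. After thinning, 2 of 28 deletion libraries still showed Figla, so the transcript lay near the limit of detection in both groups. Without the low-count filter the adjusted p in edgeR was 0.000202, and it stayed under 0.05 in the 6 alternatives to that fit. The fitted fold change depends on the constant added to the 0 counts and is not given as a size. Uninjected embryos of the TrimAway experiment had a mean of 1.45 ± 3.15 CPM of Figla (0 to 11.4), and maternal deletion libraries 1.71 ± 3.46 CPM. These 2 levels were not tested against each other.

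Sohlh1 (chromosome 2, positions 25842995 to 25847248) was at 0 in 14 of 22 wild-type and 20 of 28 deletion libraries. It was detected in 4 wild-type libraries, all of replicate 2, among which well B02 had the highest value of 67.1 CPM, and in 5 deletion libraries, none of which exceeded 8.34 CPM. Without the low-count filter the log2 fold change was -2.003 (SE 0.91, adjusted p in edgeR = 0.0610). It was 1.30 (adjusted p = 0.374) without replicate 2, so the sign rested on that collection. It was -2.19 (adjusted p = 0.0419) with total counts as the only scaling.

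Per kilobase of exon, the mean CPM in maternal deletion libraries was 30.2 for Nobox, 20.2 for Lhx8, 6.79 for Sohlh2, 2.05 for Figla and 0.932 for Sohlh1. In wild type it was 13.9 for Lhx8, 6.71 for Nobox, 4.52 for Sohlh1, 0.481 for Sohlh2 and 0 for Figla. Lhx8 had the highest mean in wild type and Nobox after the deletion. In both orders each gene's mean lay within 1 SD of its neighbour's, by the larger SD of the pair, except for Lhx8 and Sohlh2 after the deletion, and differences between genes were not tested.

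**Figure D2:**
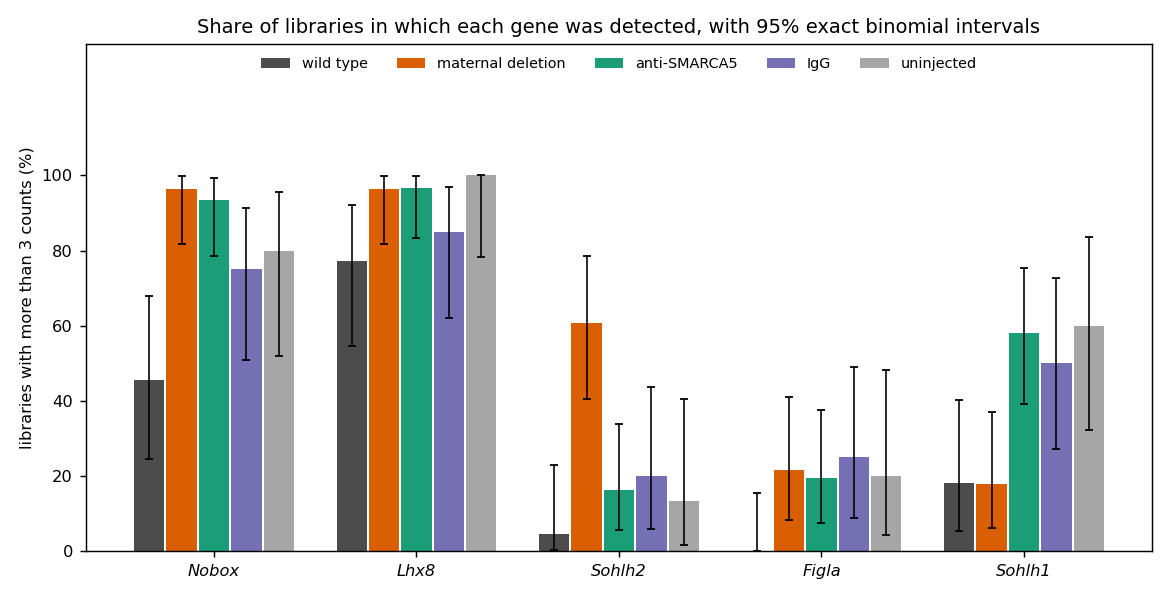
Share of libraries (%) with more than 3 counts of each gene in the 5 groups (bars), with exact 95% binomial intervals that treat libraries as independent. Sohlh2 stands at 60.7% in maternal deletion against 4.55% in wild type, and Figla at 0% in wild type.

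In the TrimAway experiment Nobox and Lhx8 had more than 3 counts in most libraries of every group, and the other 3 genes less often. After thinning, Nobox was still seen in 18 of the 31 libraries with anti-SMARCA5, 6 of the 20 with IgG and 10 of the 15 not injected, and Lhx8 in 25, 16 and 12 of them. For anti-SMARCA5 against IgG, Nobox and Lhx8 missed the threshold over all libraries and passed it, with higher values after anti-SMARCA5, when the replicate number was taken as a block. The block fits of this experiment also leave out replicate 2, which has no control library. On leaving out replicate 2 alone, Nobox was at 1.41 (adjusted p in edgeR = 0.0567) and did not pass. Nobox also passed it with DESeq2 (1.15, adjusted p = 0.0473, where 9.64% of genes changed), and Lhx8 passed without replicate 2. Both had higher values within replicate 3 than within replicate 1, a difference between collections that did not pass its own test. No difference between IgG and uninjected libraries was called for any of the 5 genes. Mitochondrial transcripts took a median of 24.4% of counts in anti-SMARCA5 libraries (up to 74.2%), 17.0% in IgG and 10.6% in uninjected libraries, and their part in these results was not tested.

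Nobox ranged from 0.923 to 88.3 CPM in anti-SMARCA5 libraries (median 9.51), from 0 to 21.5 CPM in IgG (median 8.08) and from 0 to 53.8 CPM in uninjected libraries (median 8.78). The 3 medians were close, and 5 of 31 anti-SMARCA5 libraries lay above the highest IgG library, all of them in replicate 3 except well E06 of replicate 1. The log2 fold change against IgG was 1.22 (SE 0.45, adjusted p in edgeR = 0.0883), in a comparison in which 3.03% of 10447 genes changed. With the replicate block it was 1.37 (SE 0.43, adjusted p = 0.0174), where 28.1% of genes changed. Against uninjected embryos it was 1.02 (SE 0.49, adjusted p = 0.104, with 27.9% of 10750 genes changed). With the replicate block it was 0.98 there (SE 0.44, adjusted p in edgeR = 0.0761, where 35.1% changed). Nobox stayed uncalled against uninjected embryos in all 9 alternatives (0.45 to 1.20). The 2 comparisons share the anti-SMARCA5 libraries. Scaling by total counts alone moved the median of all genes by -0.14 and -0.41 in them, and Nobox was then at 0.99 and 0.45.

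Within replicate 3, Nobox stood at 8.92 to 88.3 CPM in the 7 anti-SMARCA5 libraries (8.92, 9.51, 19.5, 22.2, 33.5, 64.1 and 88.3 CPM) and at 0 to 16.5 CPM in the 10 IgG libraries. All 10 IgG libraries lay below the anti-SMARCA5 median, and the log2 fold change was 2.32 (SE 0.68, adjusted p in edgeR = 0.0284, where 16.5% of genes changed). Within replicate 1 the change was 0.75 (SE 0.53, adjusted p = 0.397, where 0.857% of genes changed), with medians of 7.51 CPM in 17 anti-SMARCA5 and 3.97 CPM in 10 IgG libraries. The difference between these collections was 1.58 (SE 0.84, adjusted p = 0.380) and was not called. Against uninjected embryos, Nobox passed within neither replicate 3 (1.73, SE 0.93, adjusted p in edgeR = 0.163) nor replicate 1 (0.63, SE 0.47, adjusted p = 0.353). The uninjected libraries of replicate 1 had a median of 8.84 CPM, and 7 of the 17 anti-SMARCA5 libraries lay above it. Replicate 2 had no IgG library of sufficient depth, and its 7 anti-SMARCA5 libraries had a median of 3.12 CPM. Trim21 RNA was near 0 in uninjected embryos and 0 in all 10 IgG libraries of replicate 1. Its median was 182 CPM in the IgG libraries of replicate 3, so the IgG libraries of the collections were not alike. In anti-SMARCA5 libraries the Trim21 median was 1456, 1047 and 1444 CPM in replicates 1, 2 and 3. Anti-SMARCA5 and IgG libraries thus differed in Trim21 RNA too, also within replicate 3. The part of Trim21 in the Nobox and Lhx8 results was not tested.

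Lhx8 ranged from 0 to 103 CPM in anti-SMARCA5 libraries (median 23.4), from 1.62 to 50.2 CPM in IgG (median 13.4) and from 6.35 to 41.3 CPM in uninjected libraries (median 16.4). The collections of anti-SMARCA5 embryos were far apart, with medians of 23.4, 6.06 and 56.4 CPM in replicates 1, 2 and 3. In replicate 3 the 7 libraries (27.3, 30.7, 48.0, 56.4, 58.6, 76.7 and 103 CPM) all lay above the IgG median of 10.6 CPM, and the lowest of them lay above 7 of the 10 IgG libraries. The log2 fold change against IgG was 0.94 (SE 0.37, adjusted p in edgeR = 0.108) over all libraries and 1.25 (SE 0.31, adjusted p = 0.00466) with the replicate block. It was 1.24 (adjusted p in edgeR = 0.0254, where 5.85% of genes changed) without the low libraries of replicate 2, which have no counterpart in the controls. Within replicate 3 it was 2.003 (SE 0.50, adjusted p = 0.0154) and within replicate 1 it was 0.77 (SE 0.39, adjusted p = 0.235), a difference of 1.25 (SE 0.61, adjusted p = 0.331) in a test that 0.316% of genes passed.

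Against uninjected embryos the change of Lhx8 was 0.99 (SE 0.40, adjusted p in edgeR = 0.0550), and 1.09 (SE 0.32, adjusted p = 0.00923) with the replicate block, where 35.1% of genes changed. It also passed without replicate 2 (1.31, adjusted p = 0.00641, where 28.4% changed) and with a depth minimum of 50000 counts (1.05, adjusted p = 0.0397). Within replicate 3 it was 2.35 (SE 0.55, adjusted p = 0.00853, where 26.7% of genes changed). Within replicate 1 it was 0.58 (SE 0.35, adjusted p in edgeR = 0.241, where 15.6% changed). Lhx8 stayed uncalled in 6 of the 9 alternatives of this comparison. Among these were the fits without replicate 3 (0.22, adjusted p = 0.729) and with total counts only (0.49, adjusted p = 0.371). IgG against uninjected gave -0.23 (SE 0.51, adjusted p = 0.868) for Nobox and 0.05 (SE 0.34, adjusted p = 0.957) for Lhx8. In that comparison 0% of 9915 genes changed in edgeR, with 1440 at an unadjusted p under 0.05 and 261 called by DESeq2.

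**Figure D3:**
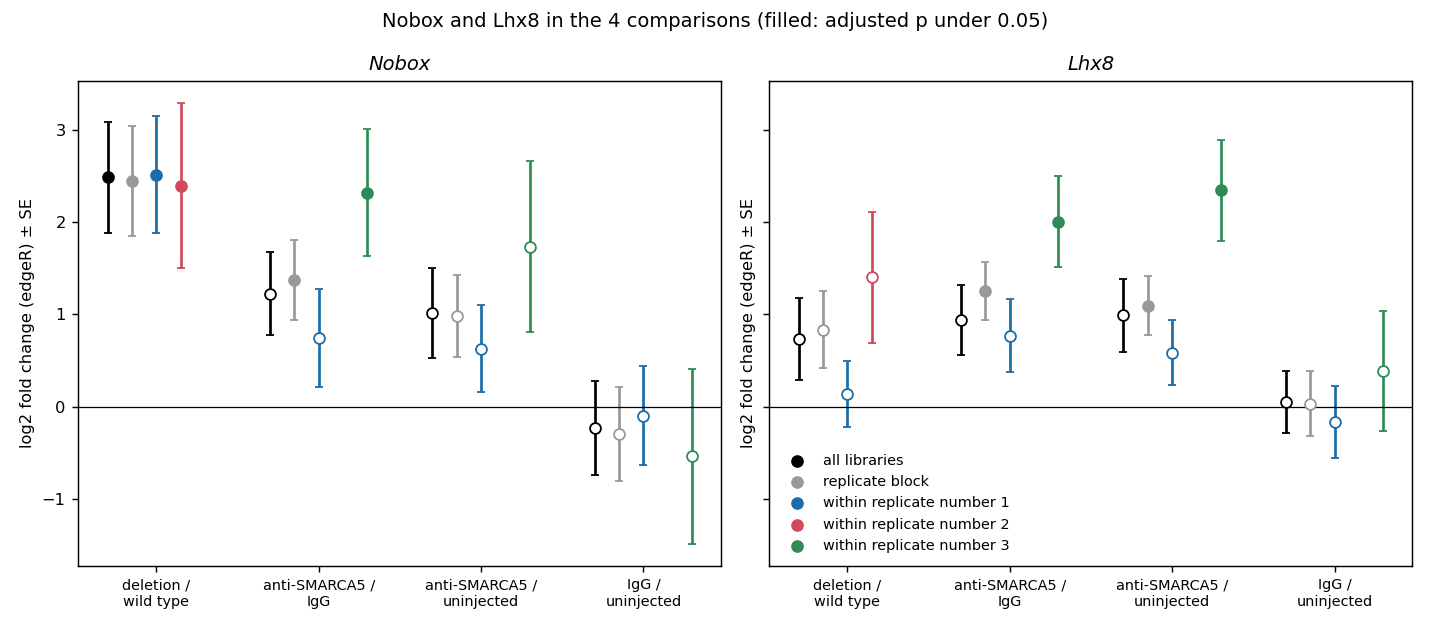
log2 fold changes with SE of Nobox and Lhx8 in the 4 comparisons, over all libraries, with the replicate number as a block and within each replicate number; filled points passed an adjusted p of 0.05. Nobox after the deletion is filled throughout (2.39 to 2.51), while the anti-SMARCA5 differences from either control are largest in replicate 3 (2.32 and 2.003 against IgG).

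The 3 sparse genes gave no called difference in the TrimAway comparisons as fitted without the low-count filter over all libraries. Figla against uninjected embryos passed without replicate 3 (3.28, adjusted p in edgeR = 0.0294) and not over all libraries (1.32, adjusted p = 0.268). Figla was detected in 6 of the 31 libraries with anti-SMARCA5, 5 of the 20 with IgG and 3 of the 15 not injected, and Sohlh2 in 5, 4 and 2 of them. Sohlh2 reached at most 8.67 CPM in this experiment, compared with 68.3 CPM in the maternal deletion group of the other table. Sohlh1 was the most often detected of the 3, in 18 of 31, 10 of 20 and 9 of 15 libraries, with medians of 2.62, 3.45 and 5.49 CPM. Against IgG the log2 fold changes were 0.48 (SE 0.75) for Figla, 0.55 (SE 0.63) for Sohlh1 and -0.16 (SE 0.74) for Sohlh2, with adjusted p in edgeR from 0.569 to 0.904, where 13.5% of 22374 genes changed. Wild-type libraries of the deletion experiment and uninjected libraries came from separate tables, and levels were not tested between them.

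The effects of deletion and of TrimAway were compared in 1 fit of the 4 groups. For Nobox the deletion effect exceeded the TrimAway effect by 1.17 (SE 0.71, adjusted p in edgeR = 0.243) and for Lhx8 the difference was -0.30 (SE 0.57, adjusted p = 0.752), in a test that 19.2% of 12035 genes passed. Sohlh1 gave -2.45 (SE 1.07, adjusted p = 0.0897). Without the low-count filter, where 18.8% of 22847 genes passed, Sohlh2 differed by 3.69 (SE 1.13, adjusted p = 0.0138), with the larger effect in the deletion experiment. Figla passed there too (adjusted p = 0.00232), in a fit against wild-type libraries that were all at 0.

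Genes reported or proposed to depend on 1 or more of these factors were examined as a list of 22, of which 21 were in the tables and tested. This list and that of partners below were chosen with earlier results of these data known. Their counts beside the share of all genes are therefore a description and no independent support. After the maternal deletion 20 of the 21 rose and none fell, where 30.3% of all tested genes rose. Their median log2 fold change was 2.16 against 0.18 over all genes tested. Gdf9, the oocyte's growth factor for the surrounding follicle cells, rose from a median of 52.0 CPM (0 to 645) to 4377 CPM (24.5 to 26735), or by 5.81 on the log2 scale (SE 0.54, adjusted p in edgeR = 3.80e-12). Zar1, a factor of the egg-to-embryo transition, rose by 5.63 (SE 0.66) from a median of 2.74 to 341 CPM, and H1foo, the oocyte's linker histone, by 4.83 (SE 0.60) from 27.0 to 388 CPM. The egg-coat genes Zp1, Zp2 and Zp3 rose by 4.28, 3.29 and 1.38. Mos, the kinase that holds the egg in meiosis, rose by 3.75, from a median of 0 to 25.4 CPM. Ooep, Nlrp5, Tle6 and Padi6, which form the subcortical maternal complex or its lattices, rose by 2.95, 2.78, 2.25 and 2.16. Pou5f1, a pluripotency factor, rose by 1.06. Dnmt1, the maintenance DNA methyltransferase, gave -0.38 (SE 0.36, adjusted p = 0.366). The rises of these genes and of Nobox were measured in the same libraries.

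With anti-SMARCA5 against IgG, 1 of 20 tested genes of the list changed (3.03% of all genes did, 1.73% upward), Kit, the receptor tyrosine kinase of germ cells, at 0.66 (SE 0.17, adjusted p in edgeR = 0.0305). The median over the list was 0.58 against 0.04 over all genes. With the replicate block 9 rose, where 13.1% of all genes did, among them Bmp15 (0.997), Pou5f1 (1.01) and Rspo2 (0.88), and the median was 0.66 against -0.02. Against uninjected embryos 6 rose (17.5% of all genes did), among them Bmp15 (1.62) and Nlrp14 (1.05), and Zp3 fell by 0.88 (10.4% of genes fell). Between IgG and uninjected embryos 0 of 20 changed in edgeR. The deletion effect exceeded the TrimAway effect for 14 of 21 genes, where it did for 10.5% of all genes tested, led by Gdf9 (5.09, SE 0.52) and Zar1 (4.70, SE 0.67), and for none was it smaller by the test. With the replicate block, where it did so for 9.36% of all genes, the count was also 14 of 21, with Rspo2 called in place of Ooep.

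Partners and other regulators of the oocyte programme were mixed. Of 11 tested after the maternal deletion, 6 rose (30.3% of all genes did) and 2 fell (26.4% did), with a median log2 fold change of 0.77. Tbpl2, the oocyte's variant of the TATA-binding protein, rose by 3.55 (SE 0.78, adjusted p in edgeR = 0.000153) and was detected in 23 of 28 deletion libraries against 3 of 22 wild-type libraries. Ybx2, a germ cell RNA-binding protein that stabilises maternal RNA, rose by 2.25, and Tcf3, which encodes E12 and E47, the general bHLH partners of factors such as FIGLA, rose by 2.002. Lin28a, Sub1 and Foxo3 rose by 1.41, 0.77 and 0.54. With the replicate block Sub1 was no longer called (0.56, adjusted p in edgeR = 0.0855). Taf4b, a germ cell subunit of TFIID, fell by 0.78 (SE 0.22), from a median of 273 to 115 CPM, and Dynll1, a dynein light chain, fell by 0.61. With anti-SMARCA5 against IgG, 1 of 10 tested rose and 1 fell, where 1.73% and 1.3% of all genes did. Ybx2 rose by 1.39 (SE 0.37, adjusted p = 0.0334) and Sall4, a germ cell and stem cell zinc finger protein, fell by 0.77 (SE 0.23, adjusted p in edgeR = 0.0480). With the block, Foxo3 was also called higher (0.71) and Taf4b (-0.66) and Dynll1 (-0.79) lower, where 13.1% and 15% of all genes were.

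**Figure D4:**
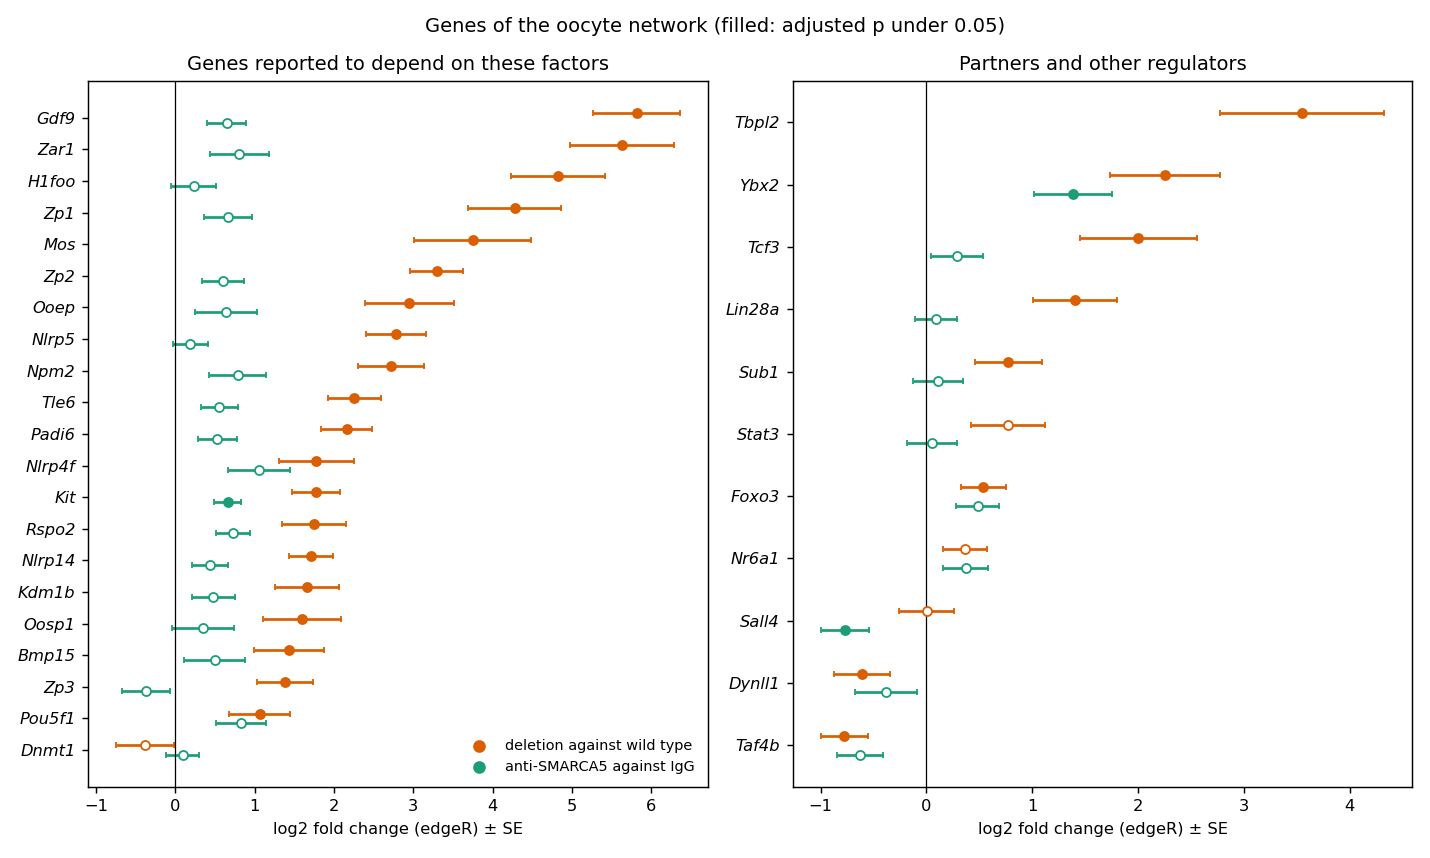
log2 fold changes with SE of the genes reported or proposed to depend on the factors (left) and of partners and other regulators (right). They are shown after maternal deletion and with anti-SMARCA5 against IgG, and filled points passed an adjusted p of 0.05 in edgeR. After the deletion 20 of 21 genes on the left are filled and positive, and Taf4b and Dynll1 on the right are filled and negative.

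Within groups of embryos, Nobox and Lhx8 were related to Smarca5 RNA, though not in every group. The 10 relations (Nobox and Lhx8 in 5 groups) were examined after the data had been seen, on log2(CPM + 1). The permutations shuffled libraries over all collections of a group, so differences between collections enter every p-value given here. In the 31 anti-SMARCA5 libraries Nobox was higher where Smarca5 was lower, with a Pearson r of -0.70 (permutation p = 1e-05, the smallest the 100000 resamples can give, adjusted p = 0.0001) and a Spearman rho of -0.70 (permutation p = 6e-05, adjusted p = 0.0006). Without the 2 libraries farthest from the median of Smarca5, r was -0.72, and within replicates 1, 2 and 3 it was -0.49, -0.80 and -0.53 over 17, 7 and 7 libraries. Smarca5 itself had medians of 387, 242 and 134 CPM in these collections. TrimAway acts on the protein, so Smarca5 RNA does not measure how far SMARCA5 was depleted in a library. The log2 fold change of Smarca5 RNA after anti-SMARCA5 was -0.65 against IgG (adjusted p in edgeR = 0.124) and -0.14 against uninjected (adjusted p = 0.737). With the replicate block it was -1.01 (adjusted p in edgeR = 0.0120) and -0.44 (adjusted p = 0.209). For Lhx8 r was -0.40 (permutation p = 0.0271, adjusted p = 0.0387; rho -0.41, adjusted p = 0.0465) and -0.27 without the 2 farthest libraries, so the pooled value rested in part on those libraries. Within replicates 1, 2 and 3 it was -0.39, 0.51 and -0.54, of opposite sign in replicate 2. In wild type r was -0.54 for Nobox (adjusted p = 0.0207 by permutation, n = 22) and -0.61 for Lhx8 (adjusted p = 0.0176 by permutation, n = 22), with rho of -0.47 and -0.73, and without the 2 farthest libraries r was -0.39 and -0.58. In maternal deletion it was -0.16 for Nobox (adjusted p = 0.440 by permutation, n = 28) and -0.51 for Lhx8 (adjusted p = 0.0207 by permutation, n = 28), with rho of -0.16 and -0.42. In IgG libraries r was -0.41 for Nobox (adjusted p = 0.0966 by permutation, n = 20) and -0.58 for Lhx8 (adjusted p = 0.0207 by permutation, n = 20). In uninjected libraries it was -0.58 for Nobox (adjusted p = 0.0387 by permutation, n = 15, but a rho of -0.37 with an adjusted p of 0.249) and 0.21 for Lhx8 (adjusted p = 0.459 by permutation, n = 15). The share of mitochondrial transcripts gave an r of -0.20 with Nobox and -0.55 with Lhx8 in the anti-SMARCA5 libraries. The points of a group share a table, and both genes are shares of the same library total. Gdf9, on TMM-scaled values, had a Spearman rho with Smarca5 of -0.63 in anti-SMARCA5 and -0.62 in wild type. Its rho was -0.39 in maternal deletion, -0.40 in IgG and 0.31 in uninjected libraries. A relation to Smarca5 RNA was thus not particular to Nobox and Lhx8.

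**Figure D5:**
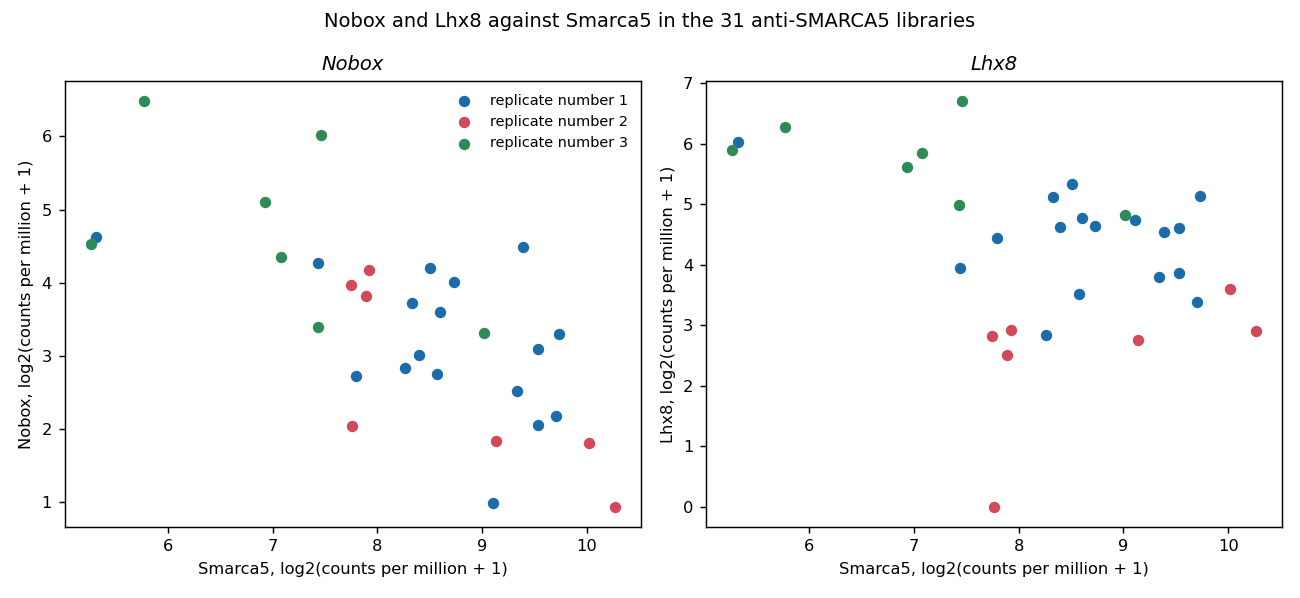
Nobox (left) and Lhx8 (right) against Smarca5, both as log2(CPM + 1), in the 31 anti-SMARCA5 libraries, coloured by replicate number. The Pearson r with Smarca5 RNA was -0.70 for Nobox and -0.40 for Lhx8, and this RNA does not measure loss of the protein. The libraries of replicate 3 lie toward low Smarca5, with a median of 134 CPM.

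The genes whose levels followed Nobox most closely over the 50 libraries of the deletion experiment and the 66 of the TrimAway experiment were Eif4e1b, a cap-binding protein of oocytes (Spearman rho 0.64 and 0.67), Odf2 (0.60 and 0.62) and Abhd4 (0.64 and 0.59). Those most like Lhx8 were Atxn2l (0.77 and 0.71), Med15, a Mediator subunit (0.72 and 0.69), and Zbed3 (0.71 and 0.68). They were the highest among 8238 genes by the lower of their 2 values, whose median was -0.14 for Nobox and -0.13 for Lhx8. Libraries of all groups of an experiment enter these values, so differences between groups, depth and collection are part of them.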

How the data were processed

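Polyadenylated RNA was counted per gene in 138 libraries, 135 of embryos and 3 of wells without an embryo. Per the file headers, the authors' read counts came from reads aligned to GRCm38, and the submitters' processing notes name Trim Galore 0.6.5, cutadapt 2.3 and HISAT2 2.1.0. The counter, the handling of strand and of reads matching several places are not given in the sources used here. Odd counts outnumber even ones among low values (134662 cells of 1 against 30228 of 2). The exact binomial intervals treat libraries as independent, take no account of this or of collections, and may be too narrow. Lines sharing an identifier were summed, leaving 25900 genes. The 19 embryo libraries under 100000 counts, in which no member exceeded 3 counts, were left out.

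Groups and replicate numbers came from the sample titles. The labels call replicates technical, so p-values measure the spread between these libraries. Each comparison was fitted on its own groups with edgeR 4.0.16 (R 4.3.3), with TMM scaling, filterByExpr, the robust quasi-likelihood test and Benjamini-Hochberg adjustment over all genes tested, with genes called at 0.05. The code was tested on simulated data. Members failing the filter were fitted without it, with no other change. SE is the log2 fold change over the square root of F. Replicate numbers mark collections per the labels, and the difference between collections correlated across genes between groups, at 0.47 (deletion and wild type), 0.57 (anti-SMARCA5 and IgG), 0.08 (anti-SMARCA5 and uninjected) and 0.41 (IgG and uninjected). Alternatives were DESeq2 1.42.0, total-count scaling, no filter, other depth minimums, the replicate block (over the replicate numbers that both groups have, so without replicate 2 in the comparisons with anti-SMARCA5) and leaving out replicates or the 3 libraries in doubt. Named genes were the 5 members, Smarca5, the lists of dependent genes and partners, and the 3 genes of highest rank correlation with a member, by the lower of the rho in the 2 experiments. The members and lists were chosen with earlier results of these data known. The alternatives of the unfiltered fits, the fit without well A04 and the relation of Nobox and Lhx8 to Smarca5 were chosen after seeing the data.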

Additional observations from a re-analysis of the deposited data

Results flagged for a closer look

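In collections of 4 to 10 libraries, 11 of 34 sets of values of a member had 1 library standing far from the rest, where chance marks about 1 in 20, and many of these sets hold mostly zeros. Well E04 of replicate 3 was the highest uninjected library of its collection for both Nobox (53.8 CPM, next 15.2 CPM) and Lhx8 (41.3 CPM, next 15.2 CPM). Figla stood apart in well E05 of replicate 3 (30.5 CPM) and well A02 of replicate 2 (3.12 CPM) of anti-SMARCA5, in well F03 of replicate 3 of IgG (25.9 CPM) and in well B09 of replicate 1 of uninjected embryos (1.85 CPM). Sohlh1 stood apart in well D02 of replicate 2 of anti-SMARCA5 (66.6 CPM, next 6.57 CPM) and well A10 of replicate 1 of IgG (11.7 CPM). The remaining 3 were single counts, of Sohlh1 in well B07 (0.638 CPM) and of Sohlh2 in well C07 (2.99 CPM) of wild type in replicate 1, and of Sohlh2 in well F04 of uninjected embryos in replicate 3 (1.03 CPM).

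The effect of deletion differed from that of TrimAway, in edgeR without the low-count filter, for Sohlh2 (3.69, adjusted p = 0.0138) and Figla (adjusted p = 0.00232, with no size given because all wild-type libraries were at 0). It also differed for 14 of 21 dependent genes and 3 of 12 partners (Gtf2a1l, Lin28a and Tcf3), with the larger effect after deletion in each, as for 10.5% of all genes tested. With the replicate block, where 9.36% did, Tcf3 was not called (adjusted p in edgeR = 0.0582) and Sall4 was (1.07, adjusted p = 0.0247). Between replicates 1 and 3 of anti-SMARCA5 against IgG, 1 of 21 dependent genes differed, where 0.316% of all genes did, Nlrp4f (2.64, SE 0.53, adjusted p in edgeR = 0.0108).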

How the results depend on the processing

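Nobox after deletion kept its direction and call under all 10 alternatives, and Sohlh2 and Figla, fitted without the low-count filter, under all 6 of theirs. Lhx8 stayed uncalled (0.14 to 1.40). Sohlh1 after deletion ranged from -1.97 to 1.30 on leaving out replicates, and passed the threshold with total counts only (-2.19). The replicate block kept these calls (2.44 for Nobox). For anti-SMARCA5 against IgG, Nobox passed with DESeq2 (1.15, adjusted p = 0.0473) and with the block (1.37), and ranged from 0.69 to 1.63 on leaving out replicates. Lhx8 passed with the block (1.25) and without replicate 2 (1.24), and ranged from 0.42 to 1.24 on leaving out replicates. The cause was not tested.

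Counts of changed genes moved by over 1.5 times as follows. Without the filter, which tests more genes, they were 10416 after deletion, 3010, 6184 and 881 in the 3 TrimAway comparisons (against IgG, against uninjected and between these controls), 678 and 136 for the differences between collections and 4285 between deletion and TrimAway, compared with 4825, 317, 2999, 0, 123, 40 and 2315. Anti-SMARCA5 against IgG gave 1007 with DESeq2, 64 with total counts only, 150 with a depth minimum of 500000 and 2835 with the block, a fit that also leaves out replicate 2 (591 without it and with no block). IgG against uninjected gave 261 with DESeq2. The block gave 1408 for deletion against TrimAway, and a depth minimum of 500000 gave 4 genes differing between deletion collections. On leaving out replicates the counts ranged from 2801 to 3879 after deletion, 0 (without replicate 1, with 1210 at an unadjusted p under 0.05 in edgeR) to 591 against IgG, 1 (without replicate 1) to 2921 against uninjected and 0 to 1 between controls.

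Some small uncalled changes reversed. For Sohlh2 against IgG (-0.16) the block gave 0.12 and leaving out replicates gave 0.048 and 0.058. Without replicate 1, Figla was at -0.40 against IgG and -0.30 against uninjected, and Sohlh1 at -0.44 against uninjected. Sohlh1 there was at -0.0047 with total counts only. Without replicate 3, Sohlh2 was at -0.47 against uninjected and -0.023 between controls. Lhx8 between controls was at -0.15 with total counts only and ranged from -0.17 to 0.39 on leaving out replicates. The number of libraries in which a member was detected moved beyond its interval in 7 of 25 cases with at least 1 count after thinning to 100000 counts. These were Nobox in anti-SMARCA5 and IgG, Lhx8 in anti-SMARCA5, Sohlh1 in anti-SMARCA5 and IgG, Figla in maternal deletion and Sohlh2 in uninjected libraries.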
